A study of Mus musculus with 12 samples.

Results

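The genes described here are 10 members of the fibroblast growth factor (FGF) pathway measured in mouse D3 embryonic stem cells: the ligands Fgf4, Fgf5 and Fgf8, the receptors Fgfr1 and Fgfr2, the feedback inhibitors Spry2 and Spry4, the ERK phosphatase Dusp6, and the ETS transcription factors Etv4 and Etv5. They were found by exact gene symbol in the annotation of the array, which names 18193 genes. All 10 were present, with 25 probe sets between them, of which 23 were bright enough to be tested. Each gene is represented by its brightest probe set, and its other probe sets serve as a check. D3 is an established line of pluripotent cells from the mouse blastocyst. Cells were kept for 7 days in medium with serum, and RNA of each culture was hybridised to 1 Affymetrix expression array. There were 4 conditions with 3 arrays each: LIF-free plus lithium (50 nM), LIF-free, LIF plus lithium (1000 units per ml and 50 nM), and LIF alone (1000 units per ml). The 3 arrays are numbered as biological replicates, with no statement of whether a number marks a shared culture or day, so p values measure the spread between these arrays.

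FGF ligands bind receptor tyrosine kinases together with heparan sulphate, and the receptors activate RAS and then the kinases MEK and ERK. ERK induces its own inhibitors, among them Sprouty proteins and the phosphatase DUSP6, and the ETS factors ETV4 and ETV5, so transcripts of these genes are often used as a readout of the pathway. In mouse embryonic stem cells Fgf4 is made under the control of Oct4 and Sox2 and drives cells towards commitment, whereas Fgf5 marks the primed epiblast and Fgf8 the early embryo around gastrulation. LIF keeps such cells in self-renewal through STAT3, and lithium is used as an inhibitor of the kinase GSK3. The lithium concentration in the labels is in the nanomolar range, while millimolar levels are usual.

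Fgf4 fell and Fgf5 rose when LIF was absent, and their promoters are shown as those of 2 ligands that moved in opposite directions; Fgf8, which rose too, is named only. The sequences are those of RefSeq on GRCm38.p6, from 250 bases before to 50 bases after the annotated start, both on the plus strand: chr7:144861136-144861435 for Fgf4 and chr5:98253934-98254233 for Fgf5. Capitals mark the GC box (GGGCGG) and the TATA motif (TATAAA) on either strand.
Fgf4 promoter: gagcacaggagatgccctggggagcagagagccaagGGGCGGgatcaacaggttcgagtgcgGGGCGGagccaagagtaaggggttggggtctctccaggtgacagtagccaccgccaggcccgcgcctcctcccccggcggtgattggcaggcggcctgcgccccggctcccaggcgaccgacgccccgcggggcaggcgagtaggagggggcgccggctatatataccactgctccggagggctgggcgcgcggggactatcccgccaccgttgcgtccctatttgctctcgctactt
Fgf5 promoter: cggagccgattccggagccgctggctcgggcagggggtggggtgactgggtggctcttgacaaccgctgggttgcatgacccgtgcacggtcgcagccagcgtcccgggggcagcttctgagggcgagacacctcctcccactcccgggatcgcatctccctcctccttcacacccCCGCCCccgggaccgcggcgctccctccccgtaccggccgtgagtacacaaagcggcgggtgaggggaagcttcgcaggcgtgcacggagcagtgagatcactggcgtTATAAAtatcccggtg

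The Fgf4 window holds 2 GC boxes, at positions 37 and 63 counted from its 5′ end, and no TATAAA. It does hold the letters tatatata before the annotated start, a match that was not searched for. The Fgf5 window holds 1 GC box at position 177 and 1 TATAAA at position 285. The G and C content of the windows is 69.7% for Fgf4 and 68.3% for Fgf5. A GC box is present in 35.7% of all 32851 promoter windows of this length and TATAAA in 13.6%; both were looked for after the values had been seen. Promoter windows were given for 6 of the 10 genes, 7 windows in all because Etv5 has 2 annotated starts. None of the 7 holds the STAT motif TTCNNNGAA, the ETS motif CCGGAAG, the octamer ATTTGCAT or the TCF/LEF motif TTCAAAG on either strand, against 8.3%, 8.86%, 1.74% and 5.14% of all windows. These letter matches describe the windows and say nothing of binding.

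Without LIF, genes of the pathway changed in both directions. Averaged over cultures with and without lithium (6 arrays against 6), transcripts of Fgf4, Spry4, Etv4 and Etv5 fell, those of Fgf5, Fgf8 and Fgfr2 rose, and those of Fgfr1, Spry2 and Dusp6 did not pass the test. The 7 changed genes had log2 changes from -3.81 to 4.11, with a median over all 10 genes of 0.06, against 0.02 over all tested probe sets. limma called 3 of the 10 genes higher, where 13.9% of the 27022 tested probe sets were called higher, and 4 lower, where 10.8% were called lower (adjusted p under 0.05, Benjamini-Hochberg over all tested probe sets). Of the 3 higher genes, Fgf5 and Fgf8 passed the filter through the arrays in which they were high. The counts of higher genes, here and in the rest of this paragraph, are therefore a description. They are not read against the shares beside them. In the same 7 genes all 6 arrays of one side lay beyond all 6 of the other: 3 were above (8.22% of all tested probe sets) and 4 below (5.91%). In arrays without lithium alone, 3 genes were called higher and 4 lower, against 5.4% and 3.91% of all probe sets. In arrays with lithium the counts were again 3 and 4, against 7.53% and 4.93%. With the replicate number as a block, the withdrawal without lithium gave 10% of probe sets higher and 9.42% lower, and 7 of the 10 genes were still called.

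**Figure D1:**
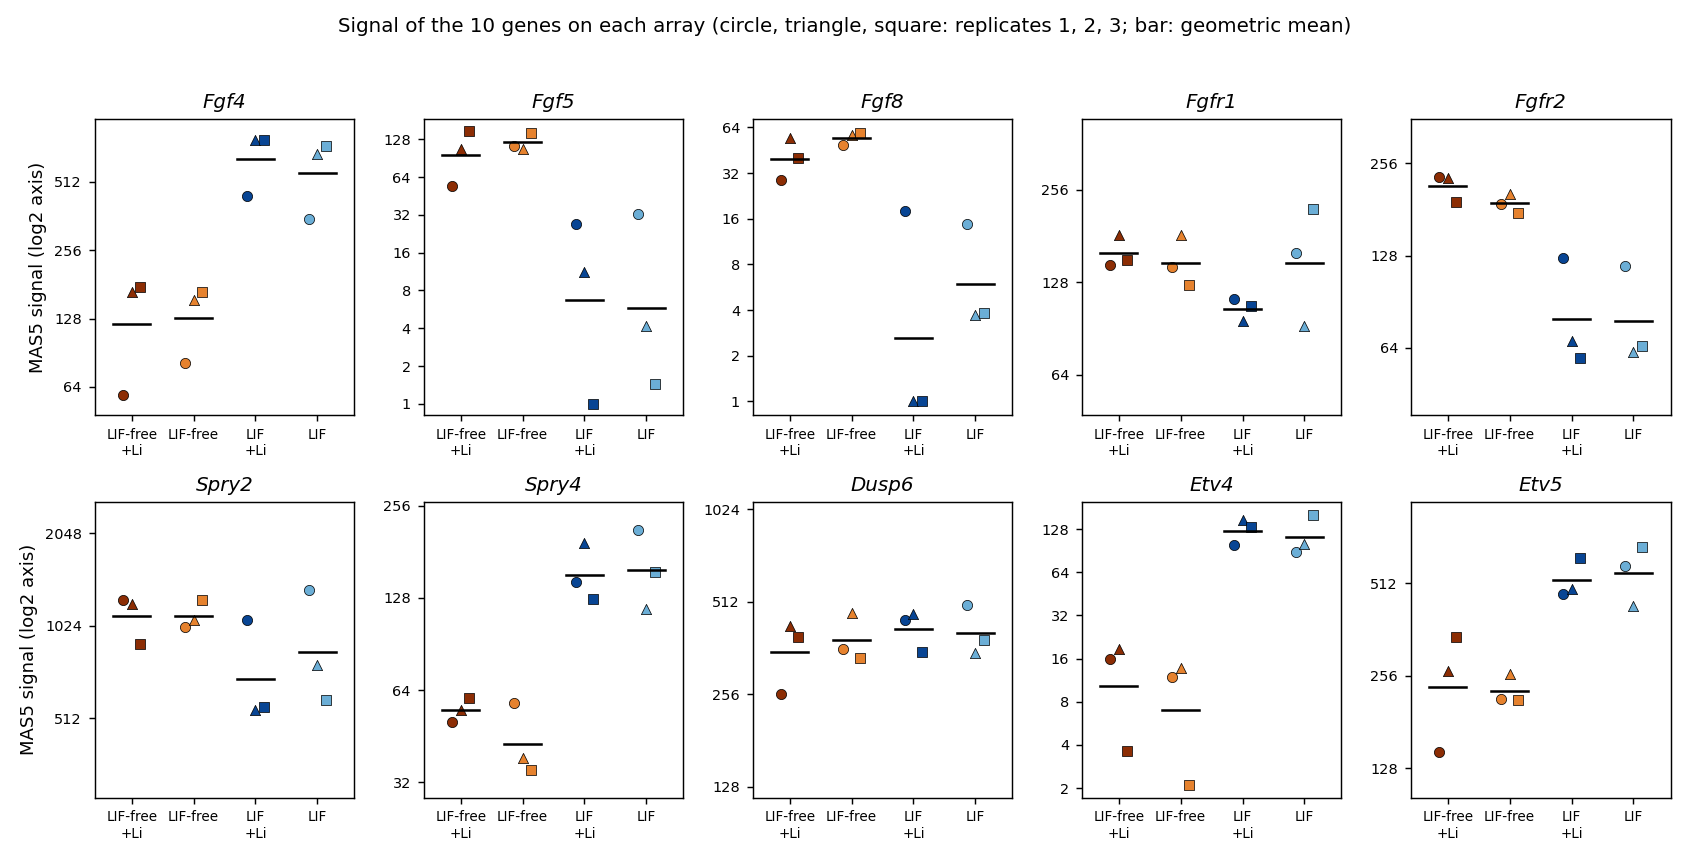
MAS5 signal (vertical axis, log2 scale, values under 1 drawn at 1) of the brightest probe set of each gene on each of the 12 arrays, by condition; marker shape gives the replicate number and the bar the geometric mean of 3 arrays. In Fgf4, Spry4, Etv4 and Etv5 every array without LIF lies below every array with LIF, and in Fgf5, Fgf8 and Fgfr2 every array without LIF lies above.

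Fgf4 (probe set 1420085_at), the FGF ligand that embryonic stem cells make themselves, had signals of 59.1, 168 and 177 in LIF-free plus lithium and 81.3, 154 and 168 in LIF-free cultures. In LIF plus lithium they were 443, 785 and 780, and in LIF 353, 680 and 735. The groups with and without LIF did not overlap, and replicate 1 was the lowest array of every condition. Averaged over lithium, Fgf4 was 4.84-fold lower without LIF (log2 change -2.28 ± 0.30, mean ± SE, n = 6 arrays a side, limma adjusted p = 0.000204). The change was -2.13 ± 0.43 without lithium (adjusted p = 0.00944) and -2.42 ± 0.43 with it (adjusted p = 0.00374). Blocking on the replicate number gave a standard error of 0.15 without lithium (limma adjusted p = 6.59e-06). Within replicates 1, 2 and 3 the LIF-free minus LIF difference was -2.12, -2.14 and -2.13 without lithium and -2.91, -2.22 and -2.14 with it, where replicate 1 had the largest drop. The next brightest probe sets of Fgf4 gave -2.31 and -2.15 averaged over lithium (adjusted p = 8.89e-05 and 0.00131), and the fourth was too dim to test.

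Fgf5 (1438883_at), the ligand of the primed epiblast, moved the other way. Its signals were 54.6, 108 and 150 in LIF-free plus lithium and 114, 108 and 143 in LIF-free cultures, against 27.2, 11.2 and 0.737 in LIF plus lithium and 32.6, 4.16 and 1.44 in LIF. All 6 arrays without LIF were above all 6 with it, and 3 of the arrays with LIF lay under the signal of 7.52 that served as the limit for testing. The log2 change was 4.11 ± 0.80 averaged over lithium (adjusted p = 0.0024), 4.38 ± 1.13 without lithium (adjusted p = 0.0291) and 3.83 ± 1.13 with it (adjusted p = 0.0422). With 16 signal units added before the log, which damps values near background, the changes were 2.24, 2.41 and 2.07 (adjusted p = 0.00016, 0.00381 and 0.00681). The size of the rise thus depends on how the dim LIF arrays are read. Within replicates 1, 2 and 3 it was 1.81, 4.7 and 6.63 without lithium and 1.01, 3.26 and 7.23 with it, and replicate 1 was the brightest array for Fgf5 in both LIF conditions. A dimmer probe set of Fgf5 gave 2.73 averaged over lithium (adjusted p = 0.00421), and there the sides overlapped. It gave 3.06 without lithium (adjusted p = 0.0347) and 2.41 with it, which did not pass (adjusted p = 0.0743). Of its 6 arrays with LIF, 5 lay under the limit, so it too passed the filter through the arrays without LIF. On the brightest probe set the separate calls depended on single arrays. Without lithium the call was lost on leaving out LIF replicate 2 or 3 or any LIF-free array (adjusted p = 0.0728 to 0.113). With lithium it was lost without LIF replicate 2, LIF plus lithium replicate 2 or 3, or any array of either LIF-free condition (adjusted p = 0.0525 to 0.172), and without LIF plus lithium replicate 3 the change was 2.46. The averaged call was kept without any single array (adjusted p up to 0.00836).

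Fgf8, a ligand of the gastrulating embryo, has 1 probe set (1451882_a_at). It had signals of 28.8, 54.8 and 40 in LIF-free plus lithium and 49.1, 57.2 and 58.9 in LIF-free cultures, against 18, 0.45 and 0.254 in LIF plus lithium and 14.8, 3.74 and 3.82 in LIF. The sides did not overlap, 4 of the 6 arrays with LIF were under the limit for testing, and replicate 1 was again the brightest array in both LIF conditions. The log2 change was 3.56 ± 0.65 averaged over lithium (adjusted p = 0.00168), 3.2 ± 0.92 without lithium (adjusted p = 0.0464) and 3.93 ± 0.92 with it (adjusted p = 0.0158). With 16 units added the changes were 1.53, 1.63 and 1.43. Both Fgf5 and Fgf8 passed the filter on the strength of the arrays without LIF, so their being measured at all is tied to the rise. Without lithium the Fgf8 call was lost on leaving out LIF replicate 2 or 3 or any array of either LIF-free condition (adjusted p = 0.0562 to 0.151). With lithium it was lost without LIF plus lithium replicate 2 or 3 or LIF-free plus lithium replicate 2 (adjusted p = 0.0681 to 0.0773). The averaged call was kept without any single array (adjusted p up to 0.00644).

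Of the receptors, Fgfr2 rose and Fgfr1 did not pass on its brightest probe set. Fgfr2 (1433489_s_at) had signals of 231, 229 and 191 in LIF-free plus lithium and 189, 203 and 176 in LIF-free cultures, against 126, 67.6 and 59.5 in LIF plus lithium and 118, 62.1 and 64.9 in LIF. The sides did not overlap, with replicate 1 the highest of each LIF condition. Averaged over lithium Fgfr2 was 2.56-fold higher without LIF (log2 change 1.36 ± 0.20, adjusted p = 0.000433), and its second probe set gave 1.28 (adjusted p = 0.00028). The change was 1.28 ± 0.29 without lithium (adjusted p = 0.0158) and 1.44 ± 0.29 with it (adjusted p = 0.00697). The first of these calls was lost without LIF replicate 2, LIF replicate 3 or LIF-free replicate 2 (adjusted p = 0.0584 to 0.0748).

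Fgfr1 (1424050_s_at), the main FGF receptor of pluripotent cells, had signals of 146, 183 and 151 in LIF-free plus lithium and 143, 182 and 125 in LIF-free cultures, against 113, 95.9 and 107 in LIF plus lithium and 159, 92.4 and 222 in LIF. The LIF arrays spanned the whole range of the LIF-free arrays, so the log2 change without lithium was 0 with an interval from -0.57 to 0.57 (adjusted p = 1). With lithium the sides did not overlap and the change was 0.6, which did not pass (adjusted p = 0.166). Its probe sets disagreed. The second one (1425911_a_at) had 149, 210 and 129 in LIF-free plus lithium and 119, 160 and 115 in LIF-free cultures, against 86.5, 98.9 and 51.9 in LIF plus lithium and 77.1, 70.3 and 100 in LIF, with no overlap. That probe set gave a log2 change of 0.87 averaged over lithium (adjusted p = 0.00474), 1.06 with lithium (adjusted p = 0.0211) and 0.67 without (adjusted p = 0.136). The dimmest gave 0.46 averaged over lithium (adjusted p = 0.0838). Which Fgfr1 transcripts each probe set reads was not analysed here.

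The Sprouty genes, whose proteins damp receptor signalling to ERK, differed in their calls: Spry4 fell and Spry2 did not pass. Spry4 (1445669_at) had signals of 50.2, 55.1 and 60.3 in LIF-free plus lithium and 58.1, 38.5 and 35.1 in LIF-free cultures, against 144, 194 and 127 in LIF plus lithium and 214, 118 and 155 in LIF. The highest array without LIF was at 60.3 and the lowest with LIF at 118. Averaged over lithium Spry4 was 3.19-fold lower without LIF (log2 change -1.68 ± 0.18, adjusted p = 6.18e-05), with -1.88 ± 0.26 without lithium (adjusted p = 0.00177) and -1.47 ± 0.26 with it (adjusted p = 0.00362). Of its other probe sets, 2 were called in both comparisons and averaged -1.27 and -2.08, and the dimmest averaged -1.55 and did not pass (adjusted p = 0.101).

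Spry2 (1436584_at) was bright in every condition. Its signals were 1240, 1200 and 890 in LIF-free plus lithium and 1010, 1070 and 1240 in LIF-free cultures, against 1070, 544 and 558 in LIF plus lithium and 1340, 761 and 584 in LIF. In both LIF conditions replicate 1 lay within or above the range of the LIF-free arrays and the other two were below it, so the sides overlapped. The averaged log2 change was 0.53 ± 0.21 (adjusted p = 0.0854), and it passed on leaving out LIF replicate 1 (0.7, adjusted p = 0.0107) or LIF plus lithium replicate 1 (0.69, adjusted p = 0.0163). The change with lithium, 0.68 (adjusted p = 0.162), passed without LIF plus lithium replicate 1 (0.99, adjusted p = 0.0337), and without lithium it was 0.38 (adjusted p = 0.477). A much dimmer probe set of Spry2 gave -0.46 averaged over lithium (adjusted p = 0.266), which is the opposite sign.

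Dusp6 (1415834_at), the cytoplasmic phosphatase that inactivates ERK, differed least of the 10 between cultures with and without LIF when averaged over lithium. Its signals were 256, 428 and 392 in LIF-free plus lithium and 359, 469 and 336 in LIF-free cultures, against 447, 467 and 352 in LIF plus lithium and 498, 349 and 385 in LIF. The ranges overlapped, with 256 to 469 without LIF and 349 to 498 with it. The averaged log2 change was -0.17 with an interval from -0.49 to 0.16 (adjusted p = 0.473), a precision that bounds a fall on this probe set to 0.49 at that confidence level. The array has no second probe set of that symbol.

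Etv4 (1423232_at), an ETS factor of the PEA3 group induced by FGF, had the deepest fall of the 10 on the brightest probe sets. Its signals were 15.9, 18.8 and 3.62 in LIF-free plus lithium and 11.9, 13.7 and 2.11 in LIF-free cultures, against 99.2, 147 and 133 in LIF plus lithium and 89.3, 100 and 161 in LIF. The highest array without LIF (18.8) was far under the lowest with it (89.3), and replicate 3 was the lowest in both LIF-free conditions. The log2 change was -3.81 ± 0.49 averaged over lithium (adjusted p = 0.000161), -4.01 ± 0.69 without lithium (adjusted p = 0.00421) and -3.6 ± 0.69 with it (adjusted p = 0.00575). With 16 units added these became -2.36, -2.39 and -2.33, all called. The second, dimmer probe set of Etv4 gave -1.4 averaged over lithium (adjusted p = 0.015), less than the -2.31 of the second set of Fgf4; it gave -1.99 without lithium (adjusted p = 0.0332) and -0.81 with it (adjusted p = 0.36).

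Etv5 (1428142_at), its close relative, fell too. Its signals were 144, 265 and 343 in LIF-free plus lithium and 215, 259 and 214 in LIF-free cultures, against 473, 490 and 620 in LIF plus lithium and 581, 431 and 671 in LIF. There was no overlap between the sides. Averaged over lithium Etv5 was 2.32-fold lower without LIF (log2 change -1.21 ± 0.19, adjusted p = 0.000581), with -1.27 ± 0.27 without lithium (adjusted p = 0.0115) and -1.15 ± 0.27 with it (adjusted p = 0.0145). Its other probe sets gave -0.93 and -0.96 averaged over lithium (adjusted p = 0.00353 and 0.004). The call with lithium was lost without LIF plus lithium replicate 3 (-1.03, adjusted p = 0.0721), and the call without lithium was lost when each array was centred on its median (-1.08, adjusted p = 0.113).

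Differences between the averaged changes of related genes are given as a description, with no test, since the pairs were chosen after their values had been seen. On the brightest probe sets the change of Spry4 minus that of Spry2 was -2.2 on the log2 scale, that of Etv5 minus Dusp6 was -1.04, and that of Fgfr2 minus Fgfr1 was 1.06. Etv4 minus Etv5 was -2.6, a value that rests on Etv4 arrays near background: with 16 units added the changes were -2.36 for Etv4 and -1.16 for Etv5. On their second probe sets the averaged changes were -1.4 for Etv4 and -0.93 for Etv5, and without lithium -1.99 and -0.98. With lithium they were -0.81 and -0.89, so the order of this pair was not kept there. The other pairs also lay closer on their second probe sets. The averaged changes there were -1.27 for Spry4 and -0.46 for Spry2, and 1.28 for Fgfr2 and 0.87 for Fgfr1. Dusp6 has no second probe set.

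**Figure D2:**
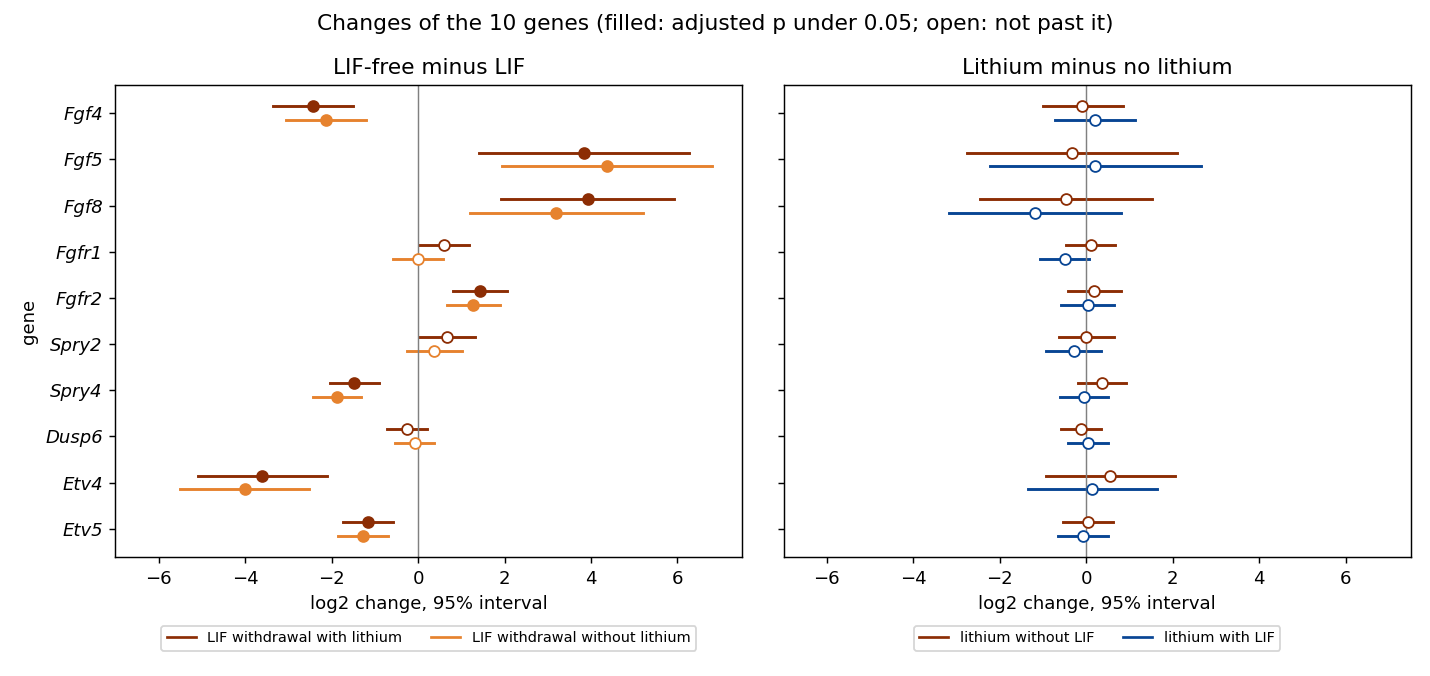
Log2 change (horizontal axis) with its 95% interval for each gene in the 2 LIF comparisons (left) and the 2 lithium comparisons (right); filled points passed an adjusted p of 0.05. The LIF changes run from -4.01 to 4.38 with 7 genes filled in each comparison, and no gene is filled on the lithium side.

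On their brightest probe sets, lithium changed none of the 10 genes detectably. In LIF cultures the log2 changes from lithium lay between -1.19 (Fgf8) and 0.21 (Fgf4 and Fgf5), and in LIF-free cultures between -0.46 (Fgf8) and 0.55 (Etv4). limma called 0 of the 10 in either setting, where 0% of all probe sets were called in either direction, and none of the 10 had an unadjusted p under 0.05. Over all probe sets 749 (2.77%) had such a p with LIF and 347 (1.28%) without it. The 95% intervals reached from 0.46 to either side of the estimate for Dusp6 to 2.44 for Fgf5, so the precision differed between genes. For Fgfr1, Fgfr2, Spry2, Spry4, Dusp6 and Etv5 all intervals lay between -1.07 and 0.92, whereas that of Fgf8 with LIF ran from -3.18 to 0.81. All these intervals come from the fit without the replicate block. With the block, the standard error in both lithium comparisons was 0.15 instead of 0.43 for Fgf4, and it stayed at 0.26 for Fgfr1. Again 0 of the 10 were called. The interaction, which asks whether lithium altered the effect of LIF withdrawal, was called for 0 of the 10 and 0% of all probe sets, with 666 probe sets at an unadjusted p under 0.05. Its log2 values ran from -0.54 (Fgf5) to 0.72 (Fgf8). By mean log2 signal of the brightest probe sets, each of the 7 changed genes had both LIF conditions on one side. Both LIF-free conditions were on the other, and neighbours that differed by lithium alone were not separated beyond their spread. The dimmer probe set of Etv4 had 25.8, 6.14 and 8.55 in LIF-free plus lithium, above the 6.08, 5.6 and 4.17 in LIF-free cultures. Its log2 change there was 1.09 with an interval from -0.05 to 2.22, near background, and it was not called.

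**Figure D3:**
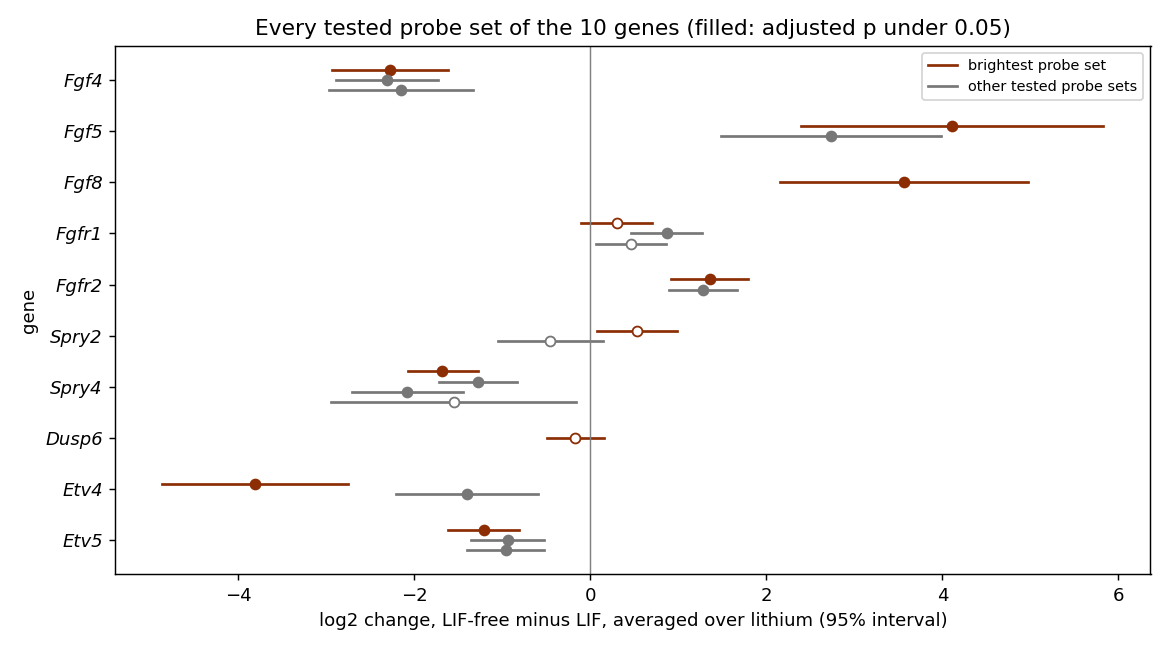
Log2 change averaged over lithium (horizontal axis, LIF-free minus LIF, with 95% interval) for the 23 tested probe sets of the 10 genes; the brightest of each gene is in brown and filled points passed an adjusted p of 0.05. Probe sets of 1 gene point the same way except in Spry2, where the brightest gave 0.53 and the dimmer one -0.46.

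The replicate number was visible in several members. Relative to the condition means, Fgf4 was lower in replicate 1 (mean log2 deviation -0.73) than in replicates 2 and 3 (0.33 and 0.4). Fgf5 deviated by 0.9, 0.06 and -0.97 in replicates 1, 2 and 3, and Fgf8 by 0.87, -0.39 and -0.48. In LIF cultures replicate 1 was thus lowest in Fgf4 and highest in Fgf5 and Fgf8. In LIF-free cultures it was not high in either: Fgf8 was lowest in replicate 1 with and without lithium, and Fgf5 was lowest there with lithium. The rise of both on LIF withdrawal was smallest in replicate 1. The signs of the Fgf4, Fgf5, Fgf8, Fgfr2, Spry4, Etv4 and Etv5 changes were nonetheless the same in all 3 numbers with and without lithium. Fgfr1 gave -0.15, 0.98 and -0.83 without lithium, Spry2 -0.42, 0.49 and 1.08, and Dusp6 -0.47, 0.43 and -0.2, which differ in sign.

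**Figure D4:**
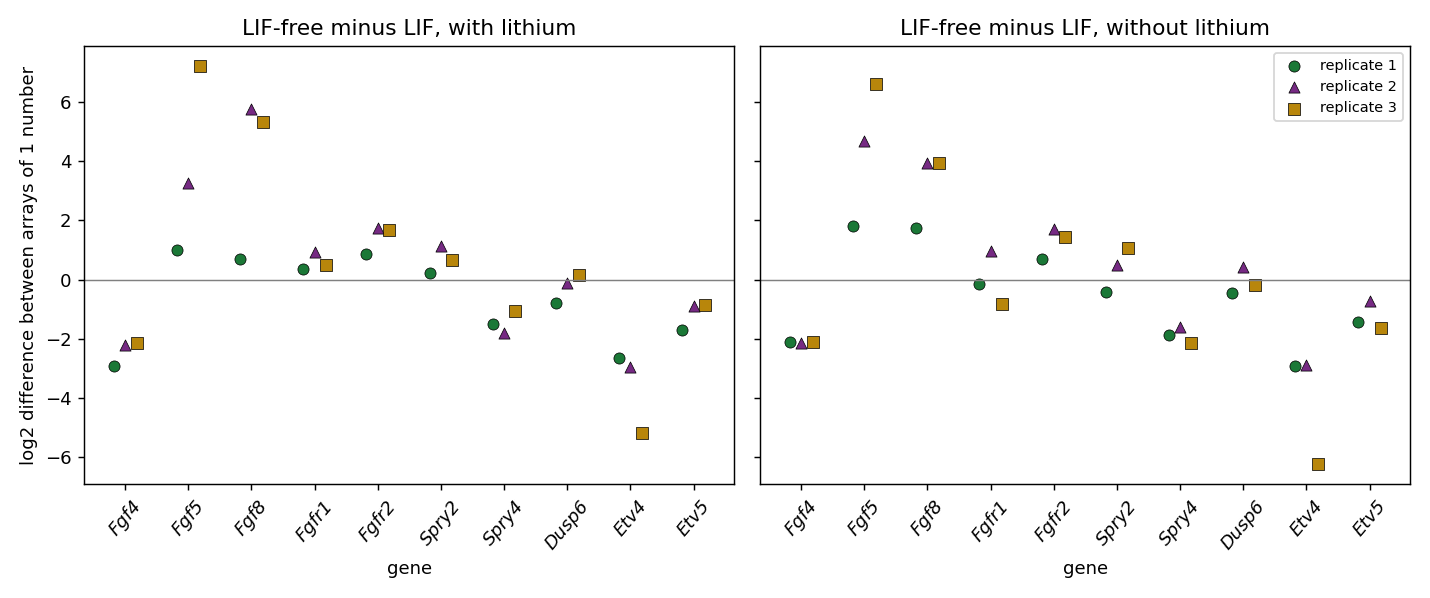
Log2 difference between the LIF-free and the LIF array of the same replicate number (vertical axis) for each gene, with lithium (left) and without (right). Fgf4 without lithium is nearly the same in all 3 numbers (-2.14 to -2.12), whereas Fgf5 runs from 1.81 to 6.63 without lithium and from 1.01 to 7.23 with it.

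The other genes of the pathway were read from 4 lists, beside which stand the shares over all tested probe sets averaged over lithium, 13.9% higher and 10.8% lower, and their median log2 change of 0.02. Among 19 further FGF ligands only 8 were bright enough to test, and 3 rose, 1 fell and 4 missed the threshold when averaged over lithium. The risers were Fgf13, an intracellular FGF homologue (log2 change 1.05, adjusted p = 0.0112), Fgf15, an endocrine ligand (1.01, adjusted p = 0.0235) and Fgf3, a secreted ligand (1.56, adjusted p = 0.0336), and Fgf11, another intracellular homologue, fell (-1.46, adjusted p = 0.0242). In the separate LIF comparisons 0 of the 8 passed, or 2 higher without lithium with the replicate block.

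Of receptors, cofactors and heparan sulphate enzymes 21 were tested, of which 10 rose and 0 fell averaged over lithium, with a median log2 change of 0.45. Fgfbp1, a carrier that releases FGFs from the matrix, had a mean signal of 391 ± 88.9 in LIF-free plus lithium and 427 ± 109 in LIF-free cultures, against 122 ± 35.1 in LIF plus lithium and 125 ± 39.5 in LIF (SD, n = 3 each; log2 change 1.74, adjusted p = 6.35e-05). The heparan sulphate proteoglycans Gpc3 (1.86, adjusted p = 8.94e-05) and Gpc4 (1.21, adjusted p = 0.000121) rose too, as did Flrt3, a membrane protein that binds FGF receptors (1.56, adjusted p = 0.00123). Without lithium 6 of the 21 rose and with it 5, and 0 fell in either.

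Of the RAS-ERK cascade 16 genes were tested: 5 rose, 0 fell and 11 missed the threshold, with a median log2 change of 0.17. They were Ptpn11, the phosphatase SHP2 that links receptors to RAS (0.81, adjusted p = 0.000234), Rras2, a RAS relative (0.8, adjusted p = 0.000428), Sos2, an exchange factor that loads RAS with GTP (0.77, adjusted p = 0.00078) and Rasa1, a GTPase activator that turns RAS off (0.55, adjusted p = 0.0021), with the kinase Braf as the last (0.71, adjusted p = 0.0336). Activators and an inhibitor of RAS were both among them. In each separate LIF comparison 4 rose and 0 fell.

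Among 24 other feedback and response genes of ERK, 6 rose, 2 fell and 16 missed the threshold, with a median log2 change of 0.4. Higher without LIF were the phosphatases Dusp14 (1.2, adjusted p = 0.000159) and Dusp9, which acts on ERK (0.86, adjusted p = 0.000174), and Phlda2, an imprinted growth regulator (1.03, adjusted p = 0.00172). Epha2, an ephrin receptor, fell (-1.41, adjusted p = 9.88e-05), as Spry4 and the ETS genes did. Without lithium 5 rose and 2 fell, or 8 and 2 with the replicate block, and with lithium 4 rose and 1 fell. By limma, 0 of the genes in any of the 4 lists was called for lithium or the interaction.

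Genes whose pattern was most like that of a member were those with the smallest root mean square difference of centred log2 signals over the 12 arrays, among 12209 genes. Nearest to Fgf4 were Pecam1 (0.21), Syce1 (0.23) and Dpys (0.23). Spry4 was nearest to Tet1 (0.21) and Tet2 (0.22), which oxidise methylated cytosine, and then Zfp229 (0.3). Etv5 was nearest to AU018091 (0.18), Msantd3 (0.19) and the zinc finger factor Sall1 (0.19). Fgfr2 had Med12l (0.12), Stx11 (0.15) and B3gnt5 (0.17) as neighbours. This distance is in log2 units and is not scaled to a gene's own spread. It was larger for the dim genes: 0.87 for Fgf5 (Usp18), 0.63 for Fgf8 (Rarb, a retinoic acid receptor) and 0.63 for Etv4 (A2m). These 3 genes also had the largest standard deviations over the arrays, 2.6, 2.24 and 2.18, so their distances do not show a lack of like genes. Fgfr1 (Pwwp2b, 0.17), Spry2 (Septin2, 0.16) and Dusp6 (Ctage5, 0.14) varied little themselves, with standard deviations of 0.39, 0.48 and 0.27. All arrays share the culture conditions and the replicate numbers, so likeness carries no test.

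Several other measures moved with LIF. The arrays had medians of 10.5 to 19.3 signal units, and any pair correlated at 0.864 to 0.97 over tested probe sets. Of 8 pluripotency markers 7 fell without LIF averaged over lithium. Over all 8, the summed signal ran from 9060 to 13100 in LIF-free plus lithium and 10900 to 13700 in LIF-free cultures. It ran from 19000 to 19600 in LIF plus lithium and 16100 to 25900 in LIF. These sums include Dppa5a, which did not pass (-0.22, limma adjusted p = 0.237). Its mean signals were 6430, 6640, 6910 and 8490 in that order of conditions, a large part of each sum. All 8 pluripotency markers passed the filter, so the markers of the labelled cell type were present. The sums of the other lists also cover all 8 genes listed, called or not. All 7 tested trophoblast markers rose (of 8 listed; summed signal 1510 to 1650 and 1400 to 1770, against 723 to 796 and 599 to 860, in the same order of conditions), and 4 of 7 tested mesoderm markers rose (240 to 422 and 230 to 404, against 96.7 to 116 and 106 to 188). Of 7 tested primitive endoderm markers 2 rose (655 to 883 and 773 to 1090, against 361 to 790 and 352 to 855, with Afp under the limit on every array). Of 6 tested fibroblast markers 3 rose and 1 fell (144 to 305 and 125 to 241, against 76 to 124 and 97.3 to 180). Of 8 neural markers 2 fell (343 to 394 and 365 to 406, against 507 to 635 and 539 to 606). All these counts are averaged over lithium, where 13.9% of all tested probe sets were called higher and 10.8% lower. Some risers were dim with LIF. Mean signals in LIF plus lithium and in LIF were 3.21 and 12 for Hand2, 4.38 and 10.7 for Postn, and 5.21 and 6.66 for Col1a1. Counts that include such genes are a description and are not read against those shares. The 3 prime to 5 prime signal ratio of Gapdh, a measure of RNA integrity, was 0.739 to 0.802 without LIF and 0.798 to 0.86 with it, and that of actin 1.45 to 1.7 and 1.49 to 1.98. The part of these shifts in the changes of the 10 genes was not tested, and in cultures of mixed cells fewer cells of a type and less RNA per cell cannot be told apart. The split of all calls also depended on scaling: without lithium 58% of calls were higher as deposited and 83.1% after centring each array on its median, and with lithium 60.4% and 34.8%. The median change over the 27022 probe sets was -0.07 as deposited and 0.13 after centring without lithium, and 0.11 and -0.23 with it, and no called member changed sign under either scaling.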

How the data were processed

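The authors deposited 1 signal intensity per probe set and array on a linear scale, computed by MAS5 (per the submitters' processing notes); its version and settings are not given in the sources used here. Trimmed by 2% at both ends, every array averaged 100, so each had been scaled to 1 target. A floor of 1 was set before log2, and 64 Affymetrix control probe sets were dropped. Of 45037 probe sets, the 27022 with a mean log2 above the 40th percentile (a signal of 7.52) were tested. Symbols came from the platform annotation (34945 probe sets with 1 symbol, 932 with several, 9160 with none), and only single symbols were used.

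In limma 3.58.1 (R 4.3.3), lmFit and eBayes with trend estimated 4 condition means from the 12 arrays together, leaving 8 residual degrees of freedom; tests were two-sided, with Benjamini-Hochberg adjustment over all tested probe sets; the code was tested on simulated data. The median half-width of a 95% interval was 0.63 for 3 arrays against 3 and 0.44 averaged over lithium; the number of arrays limits this precision. Errors of log2 changes are standard errors of the fit. They and the p values are from the fit without the replicate block unless the block is named. A permutation of 3 arrays against 3 cannot give p under 0.1. Figures used Python 3.11.15 and matplotlib 3.10.9.

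Residuals of arrays with equal replicate numbers correlated from 0.137 to 0.438 between LIF-free and LIF, from 0.139 to 0.499 between LIF plus lithium and LIF, and from 0.111 to 0.462 between the LIF-free conditions; these count as paired by the numbers in the labels (all above 0.1). Between LIF-free plus lithium and LIF plus lithium the values were 0.451, 0.0972 and 0.379, so by this cut that comparison does not. It differs little from the LIF-free pair with its lowest value of 0.111, and the split between them rests on the cut alone.

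The members and lists were chosen with earlier results of these data known. All 10 members are named in every comparison; of each list up to 4 called genes with the smallest p are named (Braf beyond it, after its value was seen); the 3 nearest genes exclude Rik, LOC and Gm symbols. Alternatives changed the scaling (quantile, median centring), the pseudocount (16), the filter (none, or the 60th percentile), the probe set, the arrays fitted (only those compared, or each left out in turn) and the replicate block.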

Additional observations from a re-analysis of the deposited data

How the results depend on the processing

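Of 1190 values of single members under an alternative, 39 lost a call, 8 gained one and 0 called values changed sign. The calls lost or gained by leaving out 1 array stand beside the genes. Of the 10 members, 7 were called in each LIF comparison; with 1 array left out the number ran from 4 (without LIF replicate 2) to 7 without lithium, from 4 (without LIF plus lithium replicate 3) to 8 with it and from 7 to 8 averaged. The count of called probe sets without lithium was 2515 as reported, 1560 after median centring, 1152 with only the compared arrays, and 1041 (without LIF-free replicate 2) to 3959 (without LIF replicate 1) with 1 array left out. With lithium it was 3368, against 1490 after median centring and 1359 (without LIF plus lithium replicate 3) to 4307 with 1 array left out, and averaged it was 6678, against 3690 after median centring and 5259 to 7495. The cause of these shifts was not tested. With the replicate number as a block the counts were 5260 without and 5938 with lithium; the block changed no member's call without lithium or for lithium itself. In the comparison with lithium the numbers fell just short of the cut for pairing (lowest 0.0972, cut 0.1). With the block Spry2 passed there (adjusted p = 0.0434), as it did averaged (adjusted p = 0.0183). Of the 21 receptors and cofactors 11 were then higher and 2 lower averaged, against 10 and 0. Lithium calls stayed at 0, except for up to 2 probe sets with LIF when LIF plus lithium replicate 1 was left out (0 to 2). Without a filter Fgf8 (adjusted p = 0.0735, no lithium) and Fgf5 (adjusted p = 0.0639, with lithium) were lost, and so was Fgf5 with lithium after quantile normalisation (adjusted p = 0.0567); Fgf8 was not tested at the 60th percentile. With only the compared arrays, Fgfr1 passed with lithium (adjusted p = 0.0488). Signals near background limit the size of the Fgf5, Fgf8 and Etv4 changes.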
